A study of Mus musculus with 2 samples.

Results

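Genes of the cilium were described on the arrays of cortical thymic epithelial cells (cTECs). Members were all genes whose symbol is Dnah, Cfap, Ift or Bbs followed directly by a number. This gave 68 of the 19938 genes on the array, 46 in the motile families (15 Dnah, 31 Cfap) and 22 in the general families (14 Ift, 8 Bbs). RNA came from NOD mice, a diabetes-prone strain, at day 7. One array was hybridised with cTEC RNA labelled as from 7 Tg, in which Aire was expressed ectopically under the promoter of the cortical proteasome subunit β5t. The other array held cTEC RNA labelled as from 5 non-Tg, with the control genotype. These numbers were read as pooled animals, and both groups share the NOD background, the age and the cell type. Each group had 1 array, so no difference has a replicate check, and no p-value was computed.

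Cilia are built on an axoneme of doublet microtubules. Primary cilia, found on most cell types as sensory antennae, and beating cilia both need intraflagellar transport (IFT), in which IFT-B trains carry cargo to the tip and IFT-A trains return. The BBSome, built from Bardet-Biedl syndrome (Bbs) proteins, moves membrane receptors with these trains. Beating cilia add dynein arms, whose heavy chains (Dnah) are the motors, and many cilia and flagella associated proteins (Cfap) of the doublets, spokes and central pair. Ciliated cells have been described in the thymic medulla, among epithelial cells that resemble those of peripheral tissues.

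Genes of cilia and IFT often carry in their promoters an X-box, the site of RFX transcription factors, and the upstream sequences of 3 members are shown because such a site was found in them. The search used the half-site GTTGCC on either strand, and an X-box of GTTNCC followed after 0 to 3 bases by GGNAAC. Sequences are RefSeq's on GRCm38.p6, read 5′ to 3′ towards the gene start, and capitals mark half-site and X-box matches. They are given for Cfap298 (chr16:90934850-90935099, minus strand), a factor of dynein arm formation, Ift57 (chr16:49699044-49699293, plus strand), an IFT-B subunit, and Bbs7 (chr3:36613493-36613639, minus strand), a BBSome subunit. All 3 stretches lie upstream of the gene, outside annotated genes.
Cfap298: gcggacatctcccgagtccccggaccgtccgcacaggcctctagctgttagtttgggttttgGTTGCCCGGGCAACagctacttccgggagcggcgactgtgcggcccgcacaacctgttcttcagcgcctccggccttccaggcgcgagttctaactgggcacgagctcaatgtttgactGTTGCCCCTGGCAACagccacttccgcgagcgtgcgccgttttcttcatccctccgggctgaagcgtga
Ift57: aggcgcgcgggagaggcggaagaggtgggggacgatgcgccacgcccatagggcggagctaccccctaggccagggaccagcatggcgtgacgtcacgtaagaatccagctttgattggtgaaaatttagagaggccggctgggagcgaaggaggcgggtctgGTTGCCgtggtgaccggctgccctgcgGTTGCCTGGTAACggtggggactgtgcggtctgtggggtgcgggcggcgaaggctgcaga
Bbs7: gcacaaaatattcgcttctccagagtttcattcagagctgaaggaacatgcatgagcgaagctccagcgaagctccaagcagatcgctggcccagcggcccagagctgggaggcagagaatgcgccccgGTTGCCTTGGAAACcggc

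Cfap298 held 2 X-box matches, which begin at bases -188 and -69 counted from the start. Ift57 and Bbs7 held 1 each, which begin at -60 and -121. The stretch shown for Bbs7 ends at base -104, and the other 2 end at -1. The fourth member with a match was Cfap20dc. A promoter of 300 bases, 250 before and 50 after the start, was found for 58 of the 68 members (for a gene with several starts, a match at any of them was counted). The half-site was in 14 of 39 motile members (35.9%, exact 95% interval 21.2 to 52.8) and 8 of 19 general members (42.1%, 20.3 to 66.5). The related genes Dnah7a, Dnah7b and Dnah7c each held the half-site and were counted separately, though the interval treats genes as independent. Among all 27025 genes with a promoter the half-site was in 14.1%. In the 250 bases before the start alone, it was in 33.3% of motile members (13 of 39) and 21.1% of general members (4 of 19, 6.05 to 45.6), against 11.8% of all genes. That turns the order of the groups, and the general interval then includes the share over all genes. X-box matches were in 2 of 39 motile members (exact 95% interval 0.627 to 17.3%) and 2 of 19 general members (1.30 to 33.1%). Over all genes the share was 0.936%, which the motile interval includes. The median GC content was 56.7% for motile and 57.7% for general members and 52.8% for all genes, and the part of GC content in these shares was not tested. Matches of letters are descriptions of the sequence, and 11 of 30 members past the filter on dim values held the half-site, as did 11 of 28 not past it.

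Levels below are the deposited log2 values. A gene passed the filter if it reached the median of all probe sets of an array, 5.43 on Tg or 5.45 on non-Tg. For log2 ratios, which are Tg over non-Tg, values under 4.80, the 25th percentile of all values, were raised to it. Probe sets differ in how strongly they bind, so the levels of different genes are compared only as distributions. Members were chosen by symbol alone, and for the 12 with several probe sets the one shown was selected on the highest mean over both arrays.

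General cilium genes were mostly above the filter and motile cilium genes mostly below it. Among the 46 motile members 17 passed (37.0%), and among the 22 general members 20 passed (90.9%), against 57.3% of all genes. The median level of the motile members was 4.91 on Tg and 4.95 on non-Tg. That of the general members was 6.68 and 6.45, so the motile minus general difference of the medians was -1.76 and -1.51 on the log2 scale. Overlap was small: 5 of 46 motile members exceeded the general median of the mean over both arrays, and 1 of 22 general members lay under the motile median. The lowest general members were Bbs10 (4.97 on Tg, 4.84 on non-Tg) and Ift172 (5.19 and 5.25), and neither passed. On both arrays 13 motile members (28.3%) and 0 general ones lay under 4.80, against 17.3% of all genes. Just inside the filter were Cfap43, Dnah10, Cfap54, Bbs1 and Bbs12, and just outside Cfap157, Dnah2 and Ift172.

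**Figure D1:**
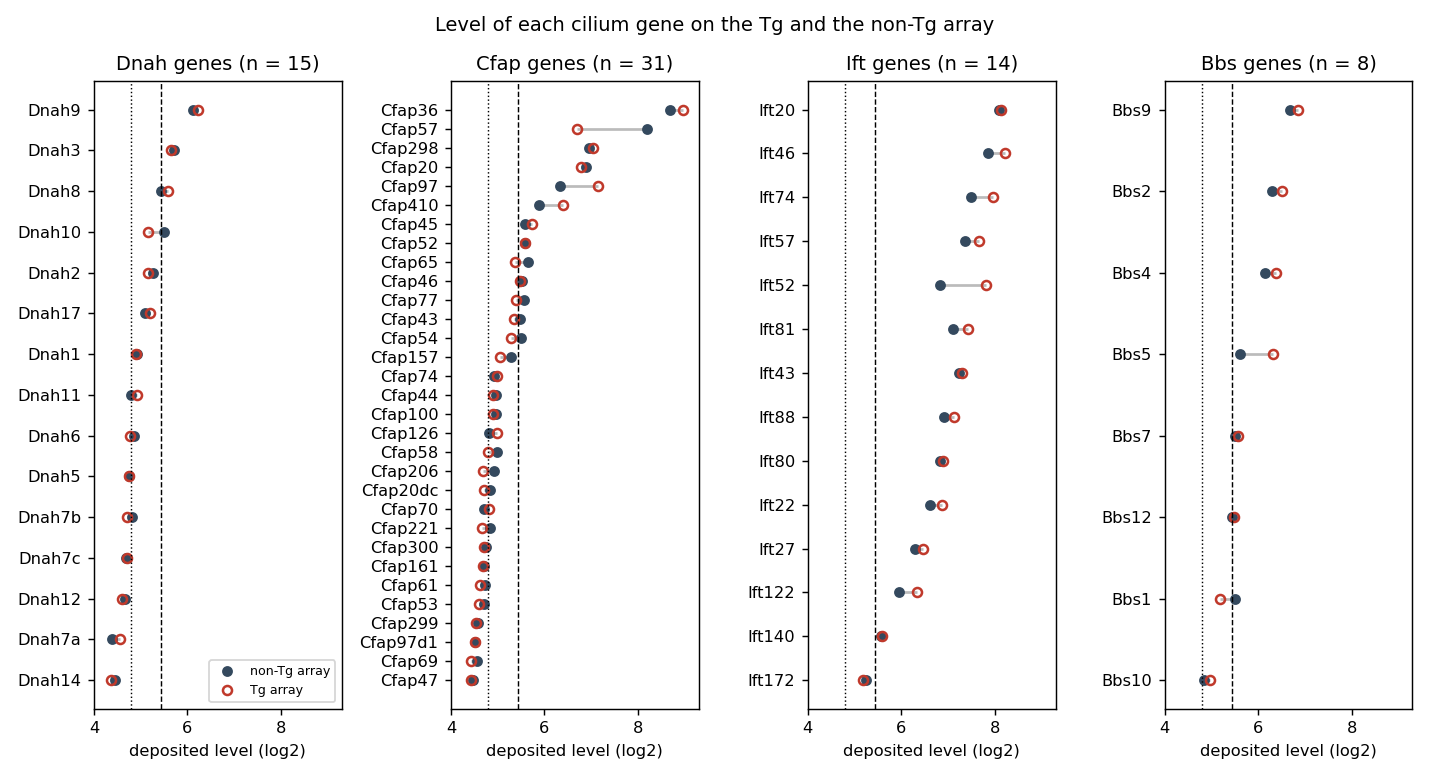
Deposited log2 level of every Dnah, Cfap, Ift and Bbs gene on the Tg array (open red) and the non-Tg array (filled dark); the dotted line is the floor of 4.80 and the dashed line lies midway between the 2 filter values, 5.43 and 5.45. Most Ift and Bbs genes lie right of the dashed line, most Dnah and Cfap genes left of it, and the pair of Cfap57 values, 6.71 and 8.20, is the widest.

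General members mostly had higher values on the Tg array, and motile members did not. Of the 22 general members, 20 were higher on the Tg array (90.9%) and 2 were lower, with a median log2 ratio of 0.19. Of the 46 motile members, 14 were higher, 30 were lower and 2 were equal, with a median of 0.00 with the floor and -0.05 without it. Over all genes 45.8% were higher on Tg, and over the 13452 genes in the level range of the general members 46.6% were, with a median of -0.01. The share was larger among brighter genes: 50.6% of all genes past the filter were higher on Tg. Among members past the filter, 19 of 20 general (95%) and 7 of 17 motile ones (41.2%) were higher. These shares depend in part on the filter, since a gene near it can pass on its higher array alone. Cfap43, Cfap54, Cfap65, Cfap77, Dnah10 and Bbs1 passed on non-Tg only, and Dnah8 and Bbs12 on Tg only. No test of the general against the motile difference is possible with 1 array a group, and most of the single differences are small. For scale, log2 ratios of pairs of probe sets for 1 gene on these arrays give an SD of 0.302 per probe set, which holds no variation between animals or RNA preparations. The ratios of all genes past the filter had a larger SD, 0.331. Among the 22 general members 6 had ratios of at least 0.3 (27.3%) and 1 of -0.3 or less, and among the 46 motile members 2 and 2. Over all genes past the filter 16.4% had ratios of at least 0.3.

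By the rule of 2-fold or more among genes past the filter, 0 of the 37 members that passed were higher on Tg and 1 was lower. Over all 11422 genes past the filter, 0.797% were 2-fold higher and 0.376% were 2-fold lower, 1.17% together. One member in 37 is thus too few to read against that background. The gene is Cfap57, and Ift52 lies just under the rule on the higher side.

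**Figure D2:**
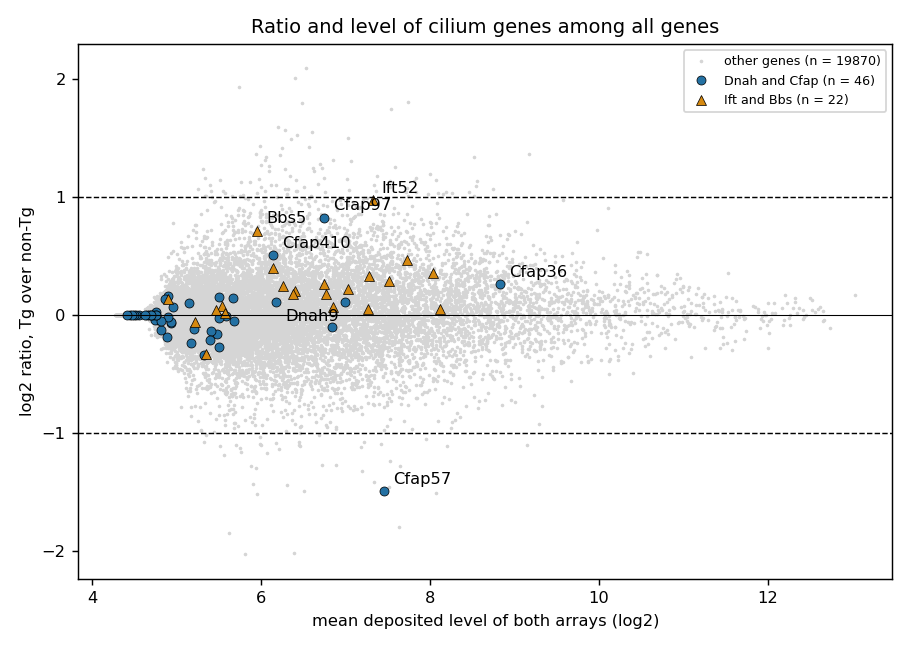
Log2 ratio of Tg over non-Tg against the mean log2 level of both arrays, for the 46 Dnah and Cfap genes (circles), the 22 Ift and Bbs genes (triangles) and all other genes (grey); dashed lines mark 2-fold. The triangles lie mostly above 0, the circles crowd at low levels where the floor sets the ratio to 0, and Cfap57 alone among members lies beyond a dashed line, at -1.49.

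Heavy chains of the dynein arms were dim on both arrays. Among the 15 Dnah genes 4 passed the filter, and 5 lay under 4.80 on both arrays (33.3%, against 17.3% of all genes). Outer arm chains, which drive beat frequency, had 2 of 5 past the filter. Dnah9, an outer arm motor of airway cilia, had the highest value of the family, with 6.23 on Tg and 6.12 on non-Tg. Its partner chain Dnah5 had 4.75 on both arrays, and Dnah11 had 4.93 and 4.79. Dnah8, an outer arm chain known from sperm flagella, had 5.58 on Tg and 5.43 on non-Tg, and Dnah17, another sperm chain, 5.19 and 5.09.

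Inner arm chains, which shape the bend, had 2 of 10 past the filter. Dnah3 stood at 5.65 on Tg and 5.70 on non-Tg, and Dnah10 at 5.15 and 5.50 (log2 ratio -0.34). Dnah2 (5.15 and 5.27) and Dnah1 (4.89 and 4.91) lay between the floor and the filter. Dnah14, at 4.37 and 4.46, had the lowest value of all members on the Tg array. The related genes Dnah7a, Dnah7b and Dnah7c lay between 4.38 and 4.80 on both arrays. Probe sets annotated to all 3 of them were left out, and the brighter one had 5.47 on Tg and 5.34 on non-Tg; signal from these copies may be shared.

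Genes with several probe sets show how far 1 probe set can stand for a gene. Dnah3 has 33 of them, from 4.32 to 5.65 on Tg and from 4.29 to 5.70 on non-Tg. Only 2 of the 33 passed the filter and 14 lay under 4.80 on both arrays, so the Dnah3 level above is the highest of many dim readings. Its 33 ratios lay between -0.28 and 0.16, with a median of 0.00. The 5 probe sets of Dnah10 gave ratios from -0.34 to 0.19, and only 1 of them passed the filter. The difference given for Dnah10 thus rests on a single probe set, and their mean ratio was -0.01. Cfap43, which ties an inner arm dynein to the doublet, has 5 probe sets with ratios from -0.14 to 0.00.

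**Figure D3:**
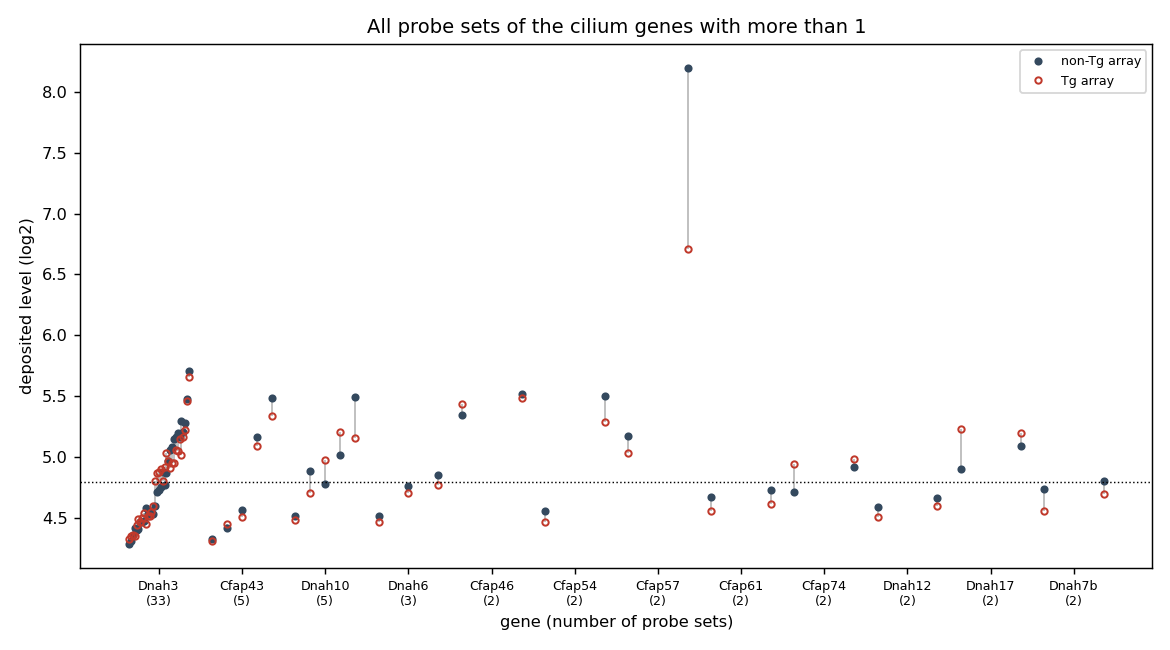
Deposited log2 level of every probe set of the 12 members with more than 1, on the Tg array (open red) and the non-Tg array (filled dark); the dotted line is the floor of 4.80. The 33 Dnah3 probe sets lie between 4.29 and 5.70, and only 1 of the 2 Cfap57 probe sets separates the arrays.

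Cfap57, a WD-repeat protein of the motile axoneme, had 6.71 on Tg and 8.20 on non-Tg, which is 2.81-fold lower on Tg (log2 ratio -1.49). Its other probe set had 5.03 on Tg and 5.17 on non-Tg, a ratio of -0.14 at levels below the filter. The 2 probe sets of Cfap57 thus differed by 3.03 on the log2 scale on the non-Tg array and by 1.68 on the Tg array. Averaged, they gave a log2 ratio of -0.81, short of 2-fold. In the RefSeq annotation Cfap57 overlaps Ebna1bp2, a ribosome biogenesis gene, which had 7.64 on Tg and 7.56 on non-Tg. The members least far from Cfap57 in both values were Ift43, Ift57 and Cfap298, with ratios of 0.05, 0.29 and 0.10. Their distances from it were 1.12, 1.26 and 1.30 on the log2 scale, so none lay near it. This ordering is over 2 arrays and describes no more than that.

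The Cfap family held a few bright genes and many dim ones. Of its 31 genes 13 passed the filter and 8 lay under 4.80 on both arrays (25.8%, against 17.3% of all genes). Including Dnah9, 7 of the 46 motile members had a mean level above 6. The others were Cfap36, Cfap57, Cfap298, Cfap20, Cfap97 and Cfap410, and not all of these belong to motile cilia alone. Cfap36, which binds the small GTPase Arl3, had 8.96 on Tg and 8.70 on non-Tg, the highest values of all members. Cfap298 had 7.05 and 6.94, and Cfap20, an inner junction protein of the doublet, 6.79 and 6.89. For these 3 genes both arrays lay within the probe set SD of 0.302.

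Cfap97 and Cfap410 were higher on the Tg array. Cfap97 had 7.16 on Tg and 6.33 on non-Tg, 1.77-fold apart (log2 ratio 0.82). Cfap410, a basal body protein linked to retinal and skeletal disease, had 6.39 and 5.89, 1.42-fold apart (log2 ratio 0.51). Each has 1 probe set here, and neither reached 2-fold.

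Proteins inside the doublet microtubules and of the central pair lay near or under the filter. Cfap45 had 5.74 on Tg and 5.59 on non-Tg and Cfap52 5.58 and 5.59, while Cfap53 had 4.60 and 4.70; these 3 are inner proteins of the doublet. Central pair genes ran from Cfap46 (5.49 and 5.52) through Cfap54 (5.29 and 5.50), Cfap74 (4.99 and 4.92) and Cfap221 (4.65 and 4.84) down to Cfap69 (4.43 and 4.55) and Cfap47 (4.44 and 4.46). Lower on Tg by small amounts were Cfap65, a gene of the sperm flagellum (5.37 and 5.64, ratio -0.27), and Cfap77 (5.40 and 5.56). Among the Cfap genes 22 of 31 were lower on the Tg array, beside 10303 of all 19938 genes. Higher were 8 (25.8%, against 45.8% of all genes), and Cfap97d1 had the same value, 4.52, on both. These counts are of values without the floor, and 8 of the 31 genes lay under 4.80 on both arrays. Equal values are not rare in this table: 809 of the 28856 probe sets have the same value on both arrays.

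IFT genes were the brightest family by their median, 7.22 on Tg and 6.88 on non-Tg. Of 14 genes 13 passed, and 13 were higher on the Tg array. IFT-B1, the train's core, had 7 of 7 Ift genes higher on Tg, with ratios from 0.18 to 0.97 and a median of 0.33. Ift52 had 7.81 on Tg and 6.83 on non-Tg, 1.96-fold apart (log2 ratio 0.97). Ift74 and Ift81, which together bind tubulin, had ratios of 0.46 (7.95 on Tg, 7.49 on non-Tg) and 0.33 (7.43 and 7.11). Ift46, which helps load outer arm dynein, had 8.21 and 7.85. Ift88, widely used in mice to remove cilia, had 7.14 and 6.92. Ift22 and Ift27, both small GTPases, had ratios of 0.26 and 0.18. Of these 7 genes, Ift52, Ift74, Ift46 and Ift81 exceeded the probe set SD of 0.302. Over all genes past the filter 16.4% had ratios of at least 0.3.

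Median ratios were smaller for the Ift genes of IFT-B2 and IFT-A, 0.05 in each. That of IFT-A rests on 3 genes, and subunits with other symbols, listed below, are not counted in these medians. Of the 4 IFT-B2 genes, Ift20, which also sits at the Golgi, had 8.14 on Tg and 8.09 on non-Tg. Ift57 had 7.66 and 7.37, Ift80 6.88 and 6.82, and Ift172, the dimmest of the family and the single one lower on Tg, 5.19 and 5.25. IFT-A, which returns trains to the base, was at 6.34 on Tg and 5.94 on non-Tg for Ift122 (ratio 0.39). For Ift43 it was 7.29 and 7.24, and for Ift140 5.58 and 5.57. Among genes with an Ift symbol, ratios thus spread from 0.01 to 0.39 in IFT-A and from -0.06 to 0.97 in IFT-B.

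BBS genes had a median of 5.94 on Tg and 5.55 on non-Tg, with 7 of 8 past the filter. The 6 BBSome subunits all passed. Bbs5, a lipid-binding subunit, had 6.31 on Tg and 5.60 on non-Tg, 1.64-fold apart (log2 ratio 0.71). Bbs9, a scaffold subunit, had 6.86 and 6.68, Bbs2 6.50 and 6.30, and Bbs4 6.38 and 6.13. Bbs7 had 5.57 and 5.50. In the other direction Bbs1, which contacts the GTPase Arl6, had 5.18 and 5.51 (ratio -0.33). Subunits of this one complex thus ranged from -0.33 to 0.71, and 2 of them exceeded the probe set SD. That SD is below the 0.331 of the ratios of all genes past the filter. Bbs10 and Bbs12, which resemble chaperonins and assist BBSome assembly, had ratios of 0.13 and 0.04.

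Other genes of the same machines were read from 7 lists of 117 genes. Of the 68 of these that passed the filter, 0 were 2-fold apart in either direction, against 1.17% of all genes past it, a count too small to tell from that share. IFT and BBS subunits with other symbols passed for 11 of 13 genes, and 9 of the 13 were higher on Tg, at a median ratio of 0.18. Ttc30b, an IFT-B1 subunit, had 7.56 on Tg and 6.61 on non-Tg, a log2 ratio of 0.95. The brightest of this list were Hspb11, also an IFT-B subunit (9.49 and 9.38), and Lztfl1, a regulator of the BBSome (8.99 and 9.22). Trim32, a ubiquitin ligase counted among BBS genes, had the lowest ratio, -0.55. Ciliary motors, the kinesin-2 and dynein-2 subunits, passed in 11 of 12 cases and were higher in 6 of 12, with a median ratio of 0.00. Their brightest genes were the dynein light chain genes Dynlrb1 (11.6 and 11.4) and Dynll1 (7.91 and 8.07), which cytoplasmic dynein also uses.

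Genes of the transition zone, the gate at the base of the cilium, and of the axoneme base passed in 17 of 22 cases. Of these 22 genes 10 were higher and 12 lower on Tg, and the median ratio was -0.02. They spread from -0.80 for Ofd1, a centriolar satellite protein, to 0.51 for the scaffold Rpgrip1l. The brightest were Arl3 (9.76 on Tg, 9.91 on non-Tg) and Iqcb1 (7.40 and 8.004). Cytoplasmic dynein 1, the motor of the cell body, passed for 9 of its 10 genes, at a median ratio of -0.11, with Pafah1b1 at 10.34 and 10.22 and Dynlt3 at 10.19 and 10.16.

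Motile cilium genes outside the Dnah and Cfap families also passed the filter less often than the 57.3% of all genes. In the order below, the shares were 21.7%, 44.4% and 36.8%, in lists of only 23, 18 and 19 genes. Dynein arm subunits, assembly and docking factors had 5 of 23 past the filter (median ratio 0.00), the brightest being the assembly factor Dnaaf2 (6.44 on Tg, 6.56 on non-Tg) and Gas8 of the dynein regulatory complex (6.42 and 6.30). Radial spoke and central pair genes had 8 of 18 past it (median 0.00), with Mns1 at 7.26 and 7.51 and Tekt2 at 5.99 and 6.12. The lowest ratio of that list was -0.77 for Rsph9, a spoke head gene, at 5.11 and 5.88. The multiciliated cell programme had 7 of 19 past the filter (median -0.02). Foxj1, the master regulator of motile cilia, had 5.08 on Tg and 5.15 on non-Tg and did not pass. Rfx3, an X-box factor, had 6.27 and 5.87, and Myb, which immature thymocytes also express, 7.996 and 8.28. Also past the filter were Mcidas (5.85 and 6.12), Rfx2 (5.73 and 6.06), Trp73 (5.60 and 5.50), Ccno (5.52 and 5.34) and Tppp3 (5.44 and 5.32). Sntn and Tmem212, genes of mature ciliated cells, were among the 4 of 19 under 4.80 on both arrays (21.1%, against 17.3% of all genes).

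**Figure D4:**
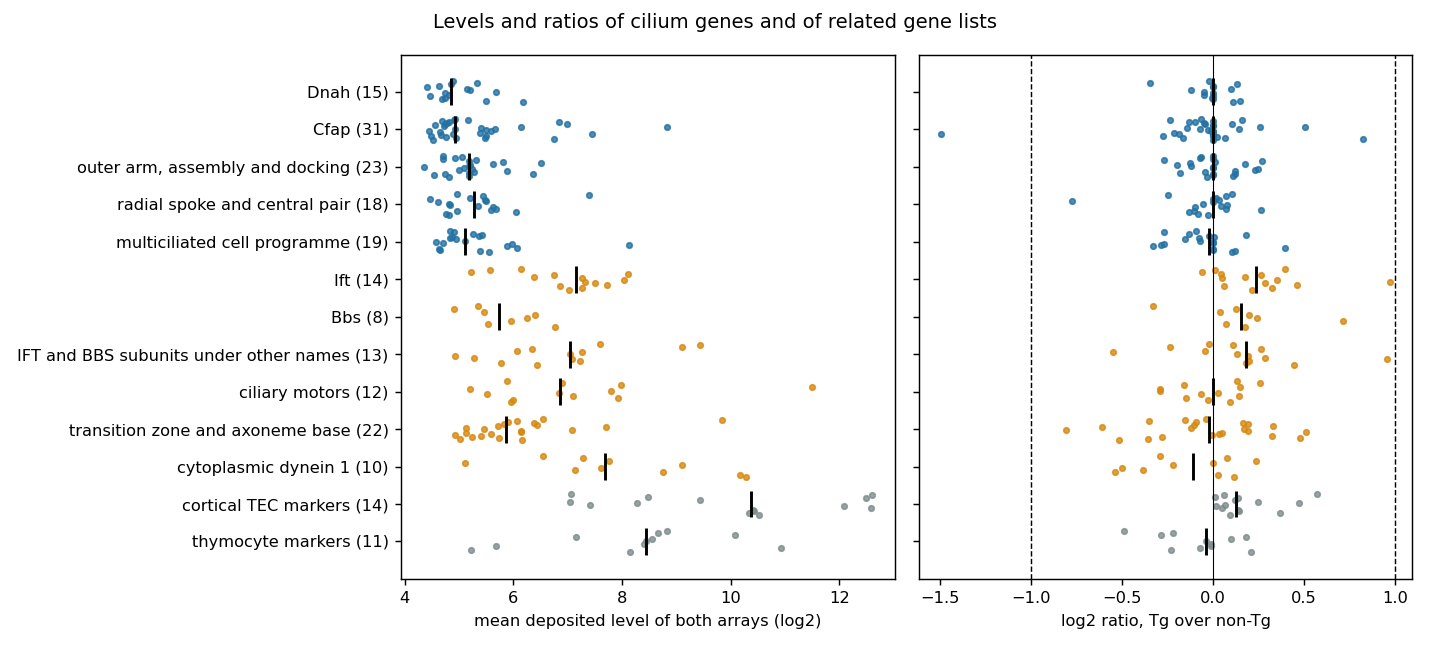
Mean log2 level of both arrays (left) and log2 ratio of Tg over non-Tg (right) for each gene of the 4 families and of related lists; each point is a gene, black bars are medians, and the number of genes is in brackets. Motile cilium sets (blue) have medians near 5 and ratios around 0, Ift genes and the IFT and BBS subunits with other symbols have median ratios of 0.24 and 0.18, and the 14 cortical markers all lie above 0.

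The arrays as a whole bear on these values in the following ways. Aire had 7.33 on Tg and 6.06 on non-Tg (2.43-fold), and Psmb11, the gene of β5t, 10.5 and 10.1. All 14 cortical epithelial markers passed the filter, from 6.78 to 12.6, and all 14 were higher on Tg, with a median ratio of 0.13. Thymocyte RNA was present on both arrays: 10 of 11 markers passed, and 8 of 11 were lower on Tg, with a median of -0.04. Macrophage and dendritic cell markers had 2 of 10 past the filter (median 0.03), fibroblast and endothelial markers 7 of 8 (median 0.08), and medullary epithelial markers 9 of 10 (median 0.14). The part of epithelial or thymocyte content in the ratios of the Ift and Bbs genes was not tested. In pooled cells, fewer cells that express a gene and less of its RNA per cell cannot be told apart.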

How the data were processed

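Total RNA was amplified from 400 pg and hybridised to Affymetrix arrays, per the labels' protocols. The authors deposited summarised log2 levels of 28856 probe sets, a scale inferred from their range (4.22 to 13.7). How background, normalization and summarisation were handled is not stated in the labels used here. Gene symbols came from GEO's platform annotation: 21789 probe sets have 1 symbol, 1621 several and 5446 none, and only the first were used. The floor, the filter and the 2-fold rule replace a test. The calls were checked on simulated data with known changes. These were 2.83-fold or 4-fold, in genes with a single probe set and a mean level of at least 7. Recovery of changes near 2-fold or at lower levels, where most members lie, was not checked.

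Members and lists were chosen with earlier results of these data known. Named in each family were genes beyond or near 2-fold, the brightest, those with the most extreme ratios and those whose probe sets disagree; in each list, the 2 brightest and any beyond 2-fold. Other genes were named after their values were seen. Of the lists, 13 of 17 genes for IFT and BBS subunits with other symbols and 12 of 13 motors were used. So were 22 of 25 genes of the transition zone and axoneme base and 10 of 10 of cytoplasmic dynein 1. For dynein arms, spokes and the multiciliated programme these were 23 of 24, 18 of 22 and 19 of 20. Python 3.11.15, numpy 2.4.6, pandas 2.3.3, scipy 1.17.1 and matplotlib 3.10.9 were used. Exact intervals of motif shares cover counting only.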

Additional observations from a re-analysis of the deposited data

How the results depend on the processing

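Alternatives covered the choice of probe set, the floor, the filter, the scaling between arrays and probe sets with several symbols. The median level of motile minus general members lay between -1.75 and -1.52 and that of the ratio between -0.24 and -0.17 under all 9. General members higher on Tg numbered 18 to 20, with a median ratio of 0.17 to 0.21, and motile members higher on Tg 14 to 19. All Ift and Bbs genes have a single probe set, so the choice of probe set and the filter could not move their ratios. Only the scalings changed the general median ratio. With probe sets averaged, or with the dimmest probe set, 0 members were 2-fold lower: Cfap57 had log2 ratios of -0.81 and -0.14, and Dnah10 -0.03 and 0. With no filter all 46 motile members passed by construction. A filter at the 75th percentile left 5 motile and 11 general members. No setting made a member 2-fold higher. Ift52, with a single probe set, changed only with the scaling and stayed between 0.92 and 0.99. Among alternatives chosen after the data were seen, a search of only the 250 bases before the start found the half-site in 33.3% of motile, 21.1% of general and 11.8% of all promoters. Counting GTTACC as well gave 48.7%, 47.4% and 20.8%. No paired analysis was possible because each group has 1 array. Precision is limited by that number, and no detection calls or scanner files were used here, so signal over background and batches were not examined.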
